A study of Mus musculus with 6 samples.

Results

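The 10 genes Ppargc1a, Ppargc1b, Ppara, Esrra, Ebf2, Prdm16, Dio2, Ucp1, Ucp2 and Ucp3 encode coactivators, transcription factors and effectors of heat production in adipocytes, and were chosen by symbol as regulators and effectors of the thermogenic and beige fat programme. They are 10 of 54532 genes in the deposited count table, and each symbol matched 1 gene. Of the 10, 9 passed the filter on low counts and were among 16623 genes tested; Ucp1 did not pass. The bulk RNA sequencing libraries were made from the inguinal white fat of mice, a depot under the skin in which beige adipocytes can arise. The 3 Cdo1AKO samples came from mice with Cdo1, the gene of cysteine dioxygenase 1, deleted in adipose tissue. The 3 control samples carried floxed Cdo1 alleles (Cdo1folx/flox in the design text) and are called WT in the genotype label. Mice of both groups were 8 weeks old when a high fat diet began and ate it for 15 weeks, a diet meant to produce obesity. The Cre driver, the floxed exons, the sex and the housing temperature are not given in the sources used here. Separate animals are not stated for the replicates, and the p-values therefore speak only of the spread among these libraries, part of which may be technical.

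Brown and beige adipocytes burn fuel to make heat. Noradrenaline acts through beta-adrenergic receptors and cyclic AMP to raise Ppargc1a, whose product PGC-1 alpha coactivates nuclear receptors such as PPAR alpha and ERR alpha on genes of mitochondria and fatty acid oxidation. EBF2 and PRDM16 set and keep the identity of brown and beige adipocytes, DIO2 makes active thyroid hormone inside the cell, and UCP1 lets protons leak across the inner mitochondrial membrane. UCP2 and UCP3 are related mitochondrial carriers that are not the main source of adipose heat.

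The libraries held 16275184 to 18065810 counts in Cdo1AKO and 17830940 to 19205804 counts in control. Cdo1 itself had 123, 392 and 134 CPM (the count scaled to library size, here with TMM factors) in Cdo1AKO 1 to 3, against 887, 432 and 631 CPM in control 1 to 3, and Cdo1AKO 2 came close to control 2. Inguinal fat holds a lymph node, and its transcripts divided the libraries across the groups. The median CPM of 14 markers of B cells and lymph node stroma was 54.6, 0.354 and 58.4 in Cdo1AKO 1 to 3, against 0.0614, 92.6 and 51.7 in control 1 to 3. Cdo1AKO 2 and control 1 therefore had almost no lymph node transcripts. Ms4a1, a B cell gene, was at 75.8, 0.901 and 83.8 CPM in Cdo1AKO, against 0.0614, 143 and 82.4 CPM in control, and Glycam1, of lymph node venules, had no count in Cdo1AKO 2 or control 1. Adipoq, the adipocyte gene of adiponectin, was at 1960 ± 731 CPM in Cdo1AKO and 2620 ± 453 CPM in control (SD, n = 3 each). In bulk tissue, fewer cells of a type and less RNA per cell cannot be told apart.

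Of the 9 tested genes, 6 had every Cdo1AKO library below every control library, namely Ppargc1a, Ppargc1b, Ppara, Ebf2, Prdm16 and Ucp3. Among all genes tested, 9.73% lay that way. Ucp2 was the 1 gene with every Cdo1AKO library above every control library, as 8.87% of all genes tested were. Esrra and Dio2 overlapped between the groups. None of the 9 passed edgeR's quasi-likelihood test with group as the only term and Benjamini-Hochberg adjustment over all genes tested, where 0% of genes passed and the smallest adjusted p was 0.196. At an unadjusted p under 0.05 the same 6 genes were lower and Ucp2 was higher, beside 5.71% lower and 4.66% higher among all genes tested. The median log2 fold change of the 9 was -0.76, beside 0.06 over all genes tested.

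**Figure D1:**
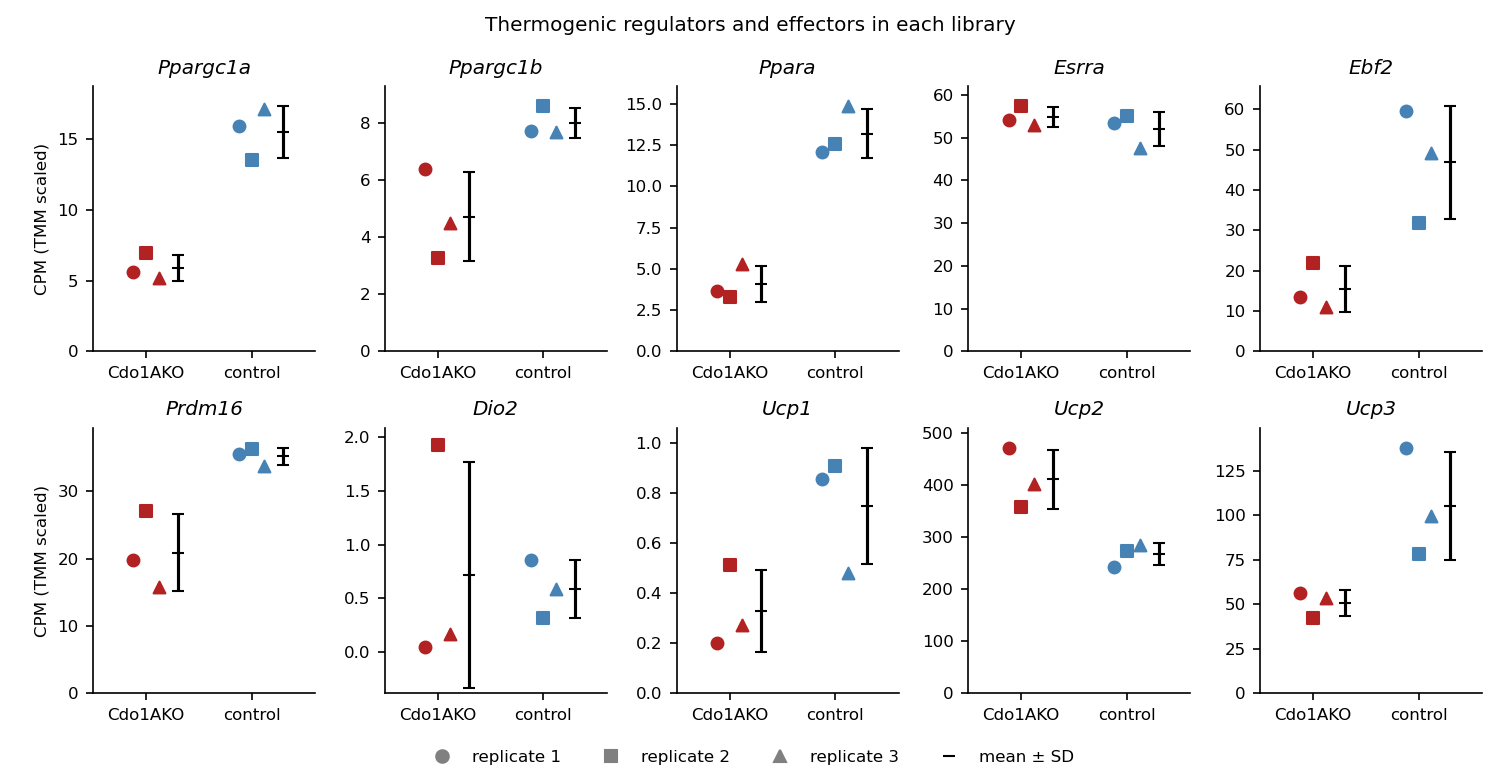
CPM (TMM scaled, linear axis) of each of the 10 genes in each library, with Cdo1AKO in red and control in blue; marker shapes give the replicate number and black bars the mean ± SD of 3 libraries. Ppargc1a, Ppargc1b, Ppara, Ebf2, Prdm16 and Ucp3 lie lower and Ucp2 higher in Cdo1AKO without overlap, while the SD bar of Dio2 in Cdo1AKO reaches below 0 because 1 library is far above the other two.

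Both coactivator genes were lower in Cdo1AKO without overlap. Ppargc1a (ENSMUSG00000029167, mm10 chr5:51454250-51567726, minus strand) had 5.60, 6.95 and 5.16 CPM in Cdo1AKO 1 to 3, against 15.9, 13.5 and 17.1 CPM in control 1 to 3. The groups were far apart and each was tight, so that Cdo1AKO averaged 5.90 ± 0.932 CPM and control 15.5 ± 1.84 CPM (SD, n = 3 each). The Cdo1AKO mean was 38.1% of the control mean, and the log2 fold change was -1.39 ± 0.21 (SE), with an edgeR adjusted p of 0.230.

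The promoter of Ppargc1a is shown because cyclic AMP acts on this gene through CREB, whose core motif TGACG it holds. The 250 bases before the RefSeq start (GRCm38.p6, chr5:51567726-51567975, minus strand) are given 5′ to 3′, with capitals marking CGTCA, which reads TGACG on the other strand; 44 bases of the window follow it.
Ppargc1a: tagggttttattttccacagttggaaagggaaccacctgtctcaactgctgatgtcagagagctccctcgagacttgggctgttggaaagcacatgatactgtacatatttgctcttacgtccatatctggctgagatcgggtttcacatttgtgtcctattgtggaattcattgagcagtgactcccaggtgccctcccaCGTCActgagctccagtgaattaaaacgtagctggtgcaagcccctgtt
RefSeq promoters were found for 8 of the 10 genes, all but Ppargc1b and Ebf2. Searched on both strands, TGACG was in 5 of the 8 windows (Ppargc1a, Ppara, Dio2, Ucp1 and Ucp2) and in 17.9% of 32536 promoter windows of the same length. The Ppara window lay inside the gene as given in the count table, with 150 of its 250 bases in annotated exons. No annotated transcript was found to start at the end of the Dio2 window. AGGTCA, the core letters that many nuclear receptors recognise, was in 2 of the 8 (Ucp1 and Ucp3) and in 14% of all windows. The E-box CACGTG was in 0 of the 8 and in 6.04% of all, and the palindrome of the EBF family (TCCC, then NN, then GGGA) was also in 0 of the 8 and in 0.787% of all. A match is a description of the window, and no match says only that these letters are not in it.

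Ppargc1b (ENSMUSG00000033871, mm10 chr18:61298136-61400431, minus strand), which encodes the related coactivator PGC-1 beta, had 6.40, 3.28 and 4.5 CPM in Cdo1AKO, against 7.73, 8.61 and 7.67 CPM in control. The control libraries lay close together and Cdo1AKO 1 came nearest to them; in raw counts the groups overlapped, with 128, 51 and 82 in Cdo1AKO and 126, 161 and 143 in control. Its log2 fold change was -0.76 ± 0.29 (SE), with an edgeR adjusted p of 0.454, and it was -0.55 without Cdo1AKO 2 and -1.04 without Cdo1AKO 1.

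Of the nuclear receptors that PGC-1 alpha coactivates, Ppara was lower without overlap and Esrra was not. Ppara (ENSMUSG00000022383, mm10 chr15:85734983-85802819, plus strand), the receptor that turns on fatty acid oxidation, had 3.65, 3.28 and 5.32 CPM in Cdo1AKO, against 12.1, 12.6 and 14.9 CPM in control. The highest Cdo1AKO library was well below the lowest control library. Cdo1AKO stood at 30.9% of control, with a log2 fold change of -1.69 ± 0.25 (SE) and an edgeR adjusted p of 0.230. Esrra (ENSMUSG00000024955, mm10 chr19:6910977-6921813, minus strand), which encodes ERR alpha, had 54.1, 57.5 and 52.9 CPM in Cdo1AKO, against 53.4, 55.1 and 47.5 CPM in control. The groups overlapped, and the log2 fold change was 0.08 ± 0.13 (SE) with an edgeR adjusted p of 0.851. Trmt112 overlaps Esrra on the other strand and had 60.8% of its count; with no strand setting given, reads of this pair cannot be told apart. Per library and per gene length, the ratio of Ppargc1a to Esrra was 0.0399, 0.0465 and 0.0376 in Cdo1AKO, against 0.115, 0.0942 and 0.139 in control, with no overlap.

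Both identity factors were lower without overlap. Ebf2 (ENSMUSG00000022053, mm10 chr14:67233292-67430918, plus strand) marks beige precursors and opens chromatin at brown fat genes; it had 13.4, 21.8 and 11.1 CPM in Cdo1AKO, against 59.6, 31.9 and 49.2 CPM in control. Cdo1AKO 2 was the highest of its group and control 2 the lowest of its own, and they still did not meet. The mean was 15.4 ± 5.63 CPM in Cdo1AKO and 46.9 ± 14 CPM in control (SD, n = 3 each), a log2 fold change of -1.60 ± 0.34 (SE) with an edgeR adjusted p of 0.309. Since Ebf2 is also used by precursor cells, it was set beside Pdgfra, a gene of adipocyte progenitors. Pdgfra itself was at -0.44 ± 0.24 on the log2 scale (SE) and overlapped. It was 1 of 4 negative genes among 14 adipocyte progenitor markers, so it does not stand for that list. The per-length ratio of Ebf2 to Pdgfra was 0.414, 0.573 and 0.389 in Cdo1AKO, against 1.06, 1.02 and 1.07 in control, so the groups were separate on this scale too. The adipocyte progenitor markers had 10 of 14 positive fold changes, with summed CPM of 1350 to 3500 in Cdo1AKO and 1210 to 1580 in control; Cdo1AKO 2 was the high library, and their median log2 fold change of 0.38 was -0.16 without it. Prdm16 (ENSMUSG00000039410, mm10 chr4:154316125-154636873, minus strand), a zinc finger coregulator of the brown fat programme, had 19.8, 27.1 and 15.8 CPM in Cdo1AKO, against 35.5, 36.3 and 33.8 CPM in control. The controls were nearly equal and the Cdo1AKO libraries spread below them, with a log2 fold change of -0.75 ± 0.22 (SE) and an edgeR adjusted p of 0.369.

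Ucp1 and Dio2 had few counts in every library. Ucp1 (ENSMUSG00000031710, mm10 chr8:83290352-83298452, plus strand) had 4, 8 and 5 counts in Cdo1AKO 1 to 3, against 14, 17 and 9 counts in control 1 to 3, summing to 17 in Cdo1AKO and 40 in control. As unscaled CPM of the library total this was 0.223, 0.443 and 0.307 in Cdo1AKO, against 0.785, 0.947 and 0.469 in control. The exact 95% binomial (Clopper-Pearson) intervals ran from 0.0607 to 0.873 over the Cdo1AKO libraries and from 0.214 to 1.52 over the control libraries, and cover counting error only. In raw counts and unscaled CPM the groups did not overlap, with Cdo1AKO lower, while in TMM-scaled CPM Cdo1AKO 2 (0.515) lay above control 3 (0.483). An exact two-sided permutation test gave p = 0.2 on TMM-scaled CPM and, chosen after seeing the data, p = 0.1 on unscaled CPM, the smallest that 3 against 3 can give. Dio2 (ENSMUSG00000007682, mm10 chr12:90724552-90738438, minus strand) had 1, 30 and 3 counts in Cdo1AKO, against 14, 6 and 11 in control. Cdo1AKO 2 was the highest and Cdo1AKO 1 the lowest of all 6 libraries, and the log2 fold change of 0.24 ± 1.2 (SE, edgeR adjusted p = 0.953) was -2.40 without Cdo1AKO 2 and 0.81 without Cdo1AKO 1. Its direction is set by single libraries.

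Ucp2 and Ucp3 stand next to each other on chromosome 7 with 6904 bases between them, and their fold changes had opposite signs. Ucp2 (ENSMUSG00000033685, mm10 chr7:100493337-100502020, plus strand), which macrophages and other immune cells also use, had 471, 357 and 402 CPM in Cdo1AKO, against 243, 272 and 284 CPM in control. Every Cdo1AKO library was higher, at 154% of control on average, with a log2 fold change of 0.62 ± 0.17 (SE) and an edgeR adjusted p of 0.362. Ucp3 (ENSMUSG00000032942, mm10 chr7:100472990-100486432, plus strand), best known from skeletal muscle and brown fat, had 56.2, 42.5 and 53.5 CPM in Cdo1AKO, against 138, 78.1 and 99.7 CPM in control. Every Cdo1AKO library was lower, at 48.2% of control on average, with a log2 fold change of -1.05 ± 0.24 (SE) and an edgeR adjusted p of 0.345. Per library and per listed gene length, the ratio of Ucp3 to Ucp2 was 0.266, 0.265 and 0.297 in Cdo1AKO, against 1.27, 0.640 and 0.783 in control. The size of this ratio depends on the lengths used, while the order of the groups does not. An antisense gene, Gm10603, overlaps Ucp3 and had 10.8% of its count.

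Markers of skeletal muscle and macrophages were read beside these carriers. Of 15 muscle markers 7 were tested, 6 with a positive fold change; their summed CPM was 146 to 274 in Cdo1AKO and 90.4 to 169 in control, Myh4 had no count in any library and Ckm had counts in Cdo1AKO 2 alone, while Ucp3 was lower. Acta1, the muscle actin, was at 0.88 ± 0.42 on the log2 scale (SE) and overlapped. Of the 7 tested muscle markers, 4 were higher without overlap, beside 8.87% of all genes tested. In the edgeR test with group only 0 of them passed, and 1 was higher at an unadjusted p under 0.05. Of 14 macrophage markers 13 had a positive fold change, with summed CPM of 1010 to 1100 in Cdo1AKO and 763 to 884 in control. Adgre1, a macrophage surface receptor, was at 0.66 ± 0.26 (SE) without overlap. Of the 14, 5 were higher without overlap, 0 passed the edgeR test with group only and 5 had an unadjusted p under 0.05. Among all genes tested, 8.87% were higher without overlap and 4.66% were higher at that p. Within Cdo1AKO the summed level varied little, at 1010, 1100 and 1070 CPM in Cdo1AKO 1 to 3, where Ucp2 was at 471, 357 and 402 CPM. The part of macrophages in the level of Ucp2 was not tested.

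The promoters of Ucp1 and Ucp3 are shown because they held AGGTCA, in capitals. Both are 250 bases before the RefSeq start (GRCm38.p6, plus strand), for Ucp1 chr8:83290098-83290347 and for Ucp3 chr7:100472741-100472990.
Ucp1: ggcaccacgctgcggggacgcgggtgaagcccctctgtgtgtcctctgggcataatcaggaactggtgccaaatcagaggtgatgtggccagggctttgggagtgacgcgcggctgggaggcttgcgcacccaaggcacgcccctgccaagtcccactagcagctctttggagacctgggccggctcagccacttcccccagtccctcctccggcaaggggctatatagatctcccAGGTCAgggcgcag
Ucp3: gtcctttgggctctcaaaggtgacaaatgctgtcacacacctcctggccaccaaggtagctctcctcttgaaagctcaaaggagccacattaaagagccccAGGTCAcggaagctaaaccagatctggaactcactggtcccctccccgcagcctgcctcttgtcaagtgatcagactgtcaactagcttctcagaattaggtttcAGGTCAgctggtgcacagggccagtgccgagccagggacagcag
The Ucp1 window held AGGTCA once with 8 bases after it, and the Ucp3 window held it with 143 and with 38 bases after it.

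Levels were compared between genes per kilobase of the listed gene length. This length need not be that of the mRNA, and for Ucp2 its 6989 bases cover most of the span of the gene. The order between genes therefore holds only for the listed lengths. In Cdo1AKO the order was Ucp2 (58.7 ± 8.20 CPM per kilobase), Esrra (21.6 ± 0.95), Ucp3 (16.2 ± 2.32), Prdm16 (2.24 ± 0.613), Ebf2 (2.23 ± 0.813), Ppargc1b (1.18 ± 0.394), Ppara (1.06 ± 0.284), Ppargc1a (0.895 ± 0.141), Ucp1 (0.202 ± 0.101) and Dio2 (0.123 ± 0.181), each as mean ± SD of 3 libraries. Neighbours from Prdm16 to Ppargc1a overlapped, as did Ucp1 and Dio2. In control the order was Ucp2 (38.1 ± 3.02 CPM per kilobase), Ucp3 (33.6 ± 9.69), Esrra (20.5 ± 1.57), Ebf2 (6.77 ± 2.02), Prdm16 (3.78 ± 0.139), Ppara (3.45 ± 0.384), Ppargc1a (2.35 ± 0.280), Ppargc1b (2.01 ± 0.132), Ucp1 (0.459 ± 0.143) and Dio2 (0.101 ± 0.0463). There Ucp2 and Ucp3, Prdm16 and Ppara, and Ppargc1a and Ppargc1b overlapped. Ucp1 was thus near the bottom in both groups of this depot on a high fat diet.

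**Figure D2:**
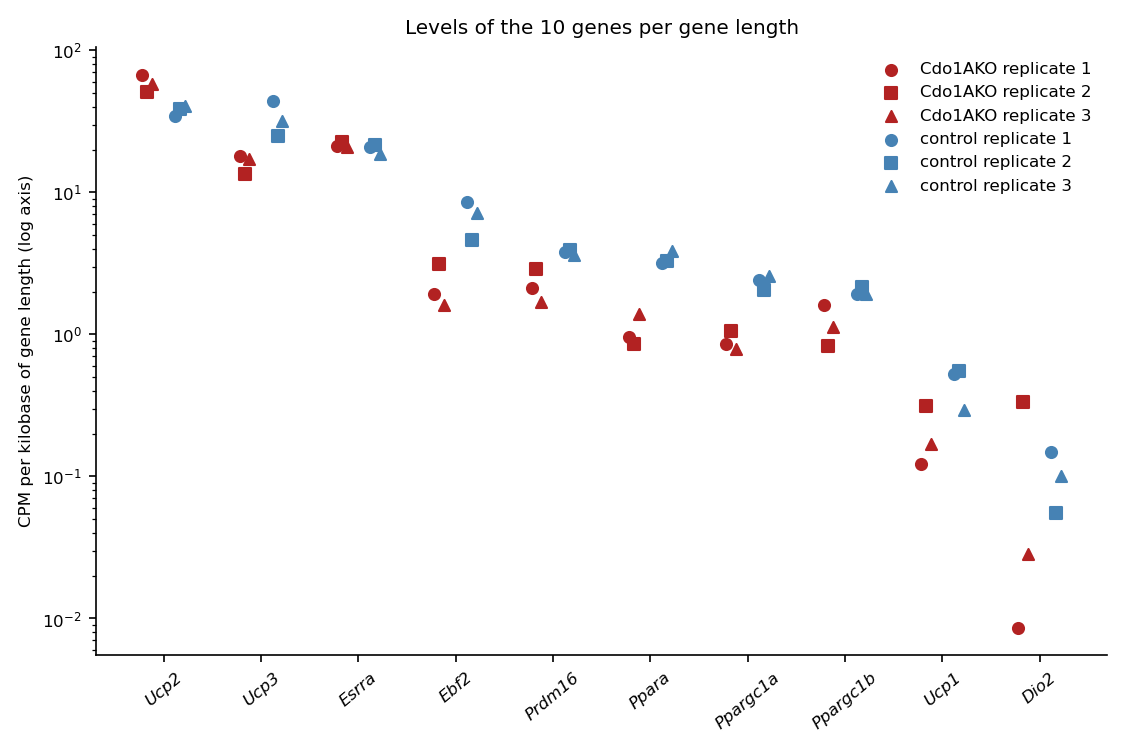
CPM per kilobase of gene length (log axis) of the 10 genes in each library, with Cdo1AKO in red left of control in blue and marker shapes for replicates, ordered by the control mean. Ucp2, Ucp3 and Esrra lie highest, Ucp1 and Dio2 lowest, and the points of Dio2 in Cdo1AKO spread most widely.

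Because the lymph node split crosses the groups, the fold changes were also taken within it. Between the libraries with lymph node transcripts (Cdo1AKO 1 and 3 over control 2 and 3) the log2 ratios were -1.51 for Ppargc1a, -1.62 for Ppara, -1.73 for Ebf2, -0.98 for Prdm16, -0.58 for Ppargc1b, -0.70 for Ucp3 and 0.65 for Ucp2. Between the libraries without them (Cdo1AKO 2 over control 1, 1 library each and so without error) they were -1.19, -1.89, -1.45, -0.39, -1.24, -1.70 and 0.56 for the same genes in that order. The 7 genes kept their direction on both sides, which was fixed in advance because their groups did not overlap. Dio2, which overlapped, did not keep its direction, at -2.09 with and 1.17 without lymph node transcripts. In an edgeR fit with the lymph node split as a term beside group, where 4.13% of genes passed and 1.87% passed as lower, 3 of the 9 passed. These were Ppargc1a (edgeR adjusted p = 0.0229), Ppara (0.0222) and Ebf2 (0.0222), which fell in Cdo1AKO. In that fit Ucp3 had an edgeR adjusted p of 0.0521, Prdm16 0.0549, Ucp2 0.0662 and Ppargc1b 0.128. On the 4 libraries with lymph node transcripts alone, where 15.4% of genes passed, Prdm16 (0.0077), Ucp2 (0.0164) and Ucp3 (0.0181) passed the edgeR test beside these 3. Those calls rest on 2 libraries a group, of which Cdo1AKO 1 and 3 were close to each other. Their counts differed by a mean chi-square per gene of 5.59, against 23.1 between control 2 and 3, and each of them differed from Cdo1AKO 2 by 196 to 204. DESeq2 with group only, where 1.55% of genes passed, called Ppargc1a, Ppara, Ebf2 and Ucp3. On the filtered genes alone, a setting chosen after seeing the data, DESeq2 passed 2.46% of genes and also called Ucp2. The authors' deposited table, where 1% of genes had an adjusted p under 0.05, gave 9.56e-05 for Ppargc1a, 3.3e-05 for Ppara, 0.00423 for Ebf2 and 0.0377 for Ucp3.

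Adipocyte markers were read beside these genes. Of 16 such markers, 13 had a negative fold change, 4 were lower without overlap and 0 passed the edgeR test with group only, while 4 had an unadjusted p under 0.05. Among all genes tested, 44.0% were negative, 9.73% were lower without overlap and 5.71% were lower at that p. Lep, Dgat2 and Lpl were positive, at 1.24, 0.77 and 0.11. The median log2 fold change of -0.43 was -0.78 without Cdo1AKO 2 and -0.26 without Cdo1AKO 1. Their summed CPM was 32300 to 80300 in Cdo1AKO and 51800 to 82000 in control, and Cdo1AKO 2 was the high library of its group. When libraries were scaled so that these markers had equal geometric means, the median of all genes moved to 0.60 on the log2 scale. On that scale Ppara was at -1.09, Ebf2 -1.10, Ppargc1a -0.87, Ucp3 -0.39, Prdm16 -0.28 and Ppargc1b -0.13, while Esrra was at 0.62 and Ucp2 at 1.21. Against Adipoq within each library and per gene length, Ebf2 stood at 0.180%, 0.155% and 0.140% of it in Cdo1AKO 1 to 3, against 0.386%, 0.293% and 0.377% in control 1 to 3. On this scale Ppargc1a and Ppara were also lower without overlap, Ucp2 was higher without overlap, and Ppargc1b, Prdm16, Esrra and Ucp3 overlapped. The part of adipocyte content in the lower levels was not tested.

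**Figure D3:**
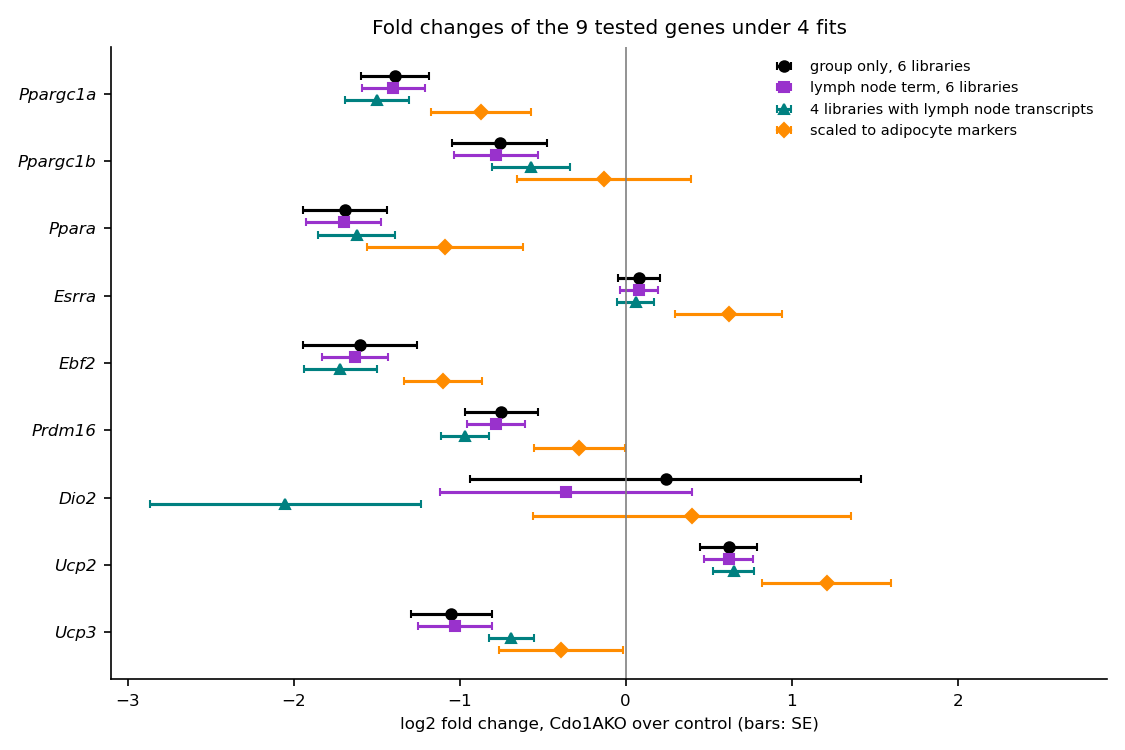
Log2 fold changes (Cdo1AKO over control) with SE bars for the 9 tested genes under 4 edgeR fits: group only, with a lymph node term, on the 4 libraries with lymph node transcripts, and with libraries scaled to adipocyte markers. Ppargc1a, Ppargc1b, Ppara, Ebf2, Prdm16 and Ucp3 stay below 0 in all 4, Esrra and Ucp2 stay above 0, and Dio2 lies on both sides.

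The genes around the programme were read from lists, and none of their genes passed the edgeR test with group only. In the list of adrenergic input and cyclic AMP, 12 of 18 tested genes were negative and 4 were lower at an unadjusted p under 0.05, beside 44.0% negative and 5.71% lower at that p among all genes tested. Adrb3, the beta receptor of adipocytes, had 185, 94.8 and 162 CPM in Cdo1AKO, against 565, 446 and 513 CPM in control, a log2 fold change of -1.79 ± 0.28 (SE) with an edgeR adjusted p of 0.230. Adrb1 was at -1.05 ± 0.22 and Akap1, which anchors protein kinase A at mitochondria, at -0.83 ± 0.14, both without overlap. With the lymph node term 4 of the 18 fell (Adrb1, Adrb3, Pde3b and Akap1), beside 1.87% lower among all genes tested.

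Other activators of the programme had 16 of 22 tested genes negative, with a median log2 fold change of -0.20. Thrb, a thyroid hormone receptor, was at -1.15 ± 0.22 and Ncoa1, a nuclear receptor coactivator, at -0.40 ± 0.14 (SE). Nr4a1, an orphan nuclear receptor, was higher, at 25.3 ± 1.5 CPM in Cdo1AKO and 12.6 ± 2.47 CPM in control (SD, n = 3 each). With the lymph node term Thrb fell and Nr4a1 rose. Repressors had 6 of 13 tested genes negative with a median of 0.01, which lay below 0 without any 1 of the 6 libraries; Nrip1, which holds back mitochondrial genes in fat, was at -0.90 ± 0.29, Ncor1 at -0.48 ± 0.19 and Ctbp2 at -0.34 ± 0.17 (SE), and Nrip1 fell with the lymph node term.

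Among 24 brown and beige markers 19 were tested and 10 were negative, with a median log2 fold change of -0.10. Cidea, a lipid droplet protein abundant in brown fat, was at -1.39 ± 0.37, Plin5, which coats lipid droplets beside mitochondria, at -0.77 ± 0.23, and Cox8b, a subunit of cytochrome oxidase, at -1.18 ± 0.62 (SE). Cidea and Plin5 did not overlap between the groups, and Cox8b did. Those 2 were the only genes of the 19 lower without overlap, near the 9.73% of all genes tested. With the lymph node term 2 of the 19 fell (Cidea and Cox8b), beside 1.87% lower among all genes tested. Of the 19, 9 were positive, with the largest values, chosen after they were seen, at 2.06 for Epsti1, 1.41 for Tnfrsf9 and 1.06 for Cox7a1. The median was -0.40 without Cdo1AKO 2 and 0.06 without control 1, so its direction depends on single libraries. Of 17 genes of heat production without UCP1, 14 were tested and 10 were negative, with a median of -0.16 that was -0.47 without Cdo1AKO 2 and -0.05 without Cdo1AKO 1. Gpd2, the mitochondrial glycerol phosphate dehydrogenase, was at -0.66 ± 0.16 and Slc2a4, the insulin-responsive glucose transporter, at -1.10 ± 0.32 (SE). Pm20d1, which makes N-acyl amino acids, was higher at 1.5 ± 0.48. With the lymph node term 2 of the 14 fell (Gpd2 and Slc2a4) and 1 rose (Pm20d1). Among all 16623 genes tested, 311 fell and 375 rose in that fit.

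Targets of PPAR alpha had 14 of 21 tested genes negative, with a median log2 fold change of -0.44 that was -0.27 without Cdo1AKO 3. Ehhadh and Slc25a20, of peroxisomal oxidation and acylcarnitine transport, were at -0.69 ± 0.20 and -0.81 ± 0.25 (SE). Cpt1a, which admits fatty acids to mitochondria, was higher, at 146 ± 28.4 CPM in Cdo1AKO and 81.1 ± 24.2 CPM in control (SD, n = 3 each). With the lymph node term 2 of the 21 fell (Acadvl and Slc25a20), beside 1.87% lower among all genes tested. Mitochondrial targets of ERR alpha and PGC-1 had 20 of 24 tested genes negative, with a median of -0.22 that was -0.58 without Cdo1AKO 2 and -0.13 without Cdo1AKO 1. Twnk, the mitochondrial DNA helicase, was at -0.65 ± 0.16 and Tfb2m, a mitochondrial transcription factor, at -0.66 ± 0.17 (SE). Perm1, a gene of muscle, had 7.20, 1.16 and 6.97 CPM in Cdo1AKO, against 0.491, 1.77 and 1.07 CPM in control, and overlapped. It was the 1 gene of the 24 that passed with the lymph node term, and there it rose. The mitochondrially encoded mRNAs had 10 of 13 negative, and their summed CPM was 21300 to 50500 in Cdo1AKO and 30600 to 39700 in control.

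**Figure D4:**
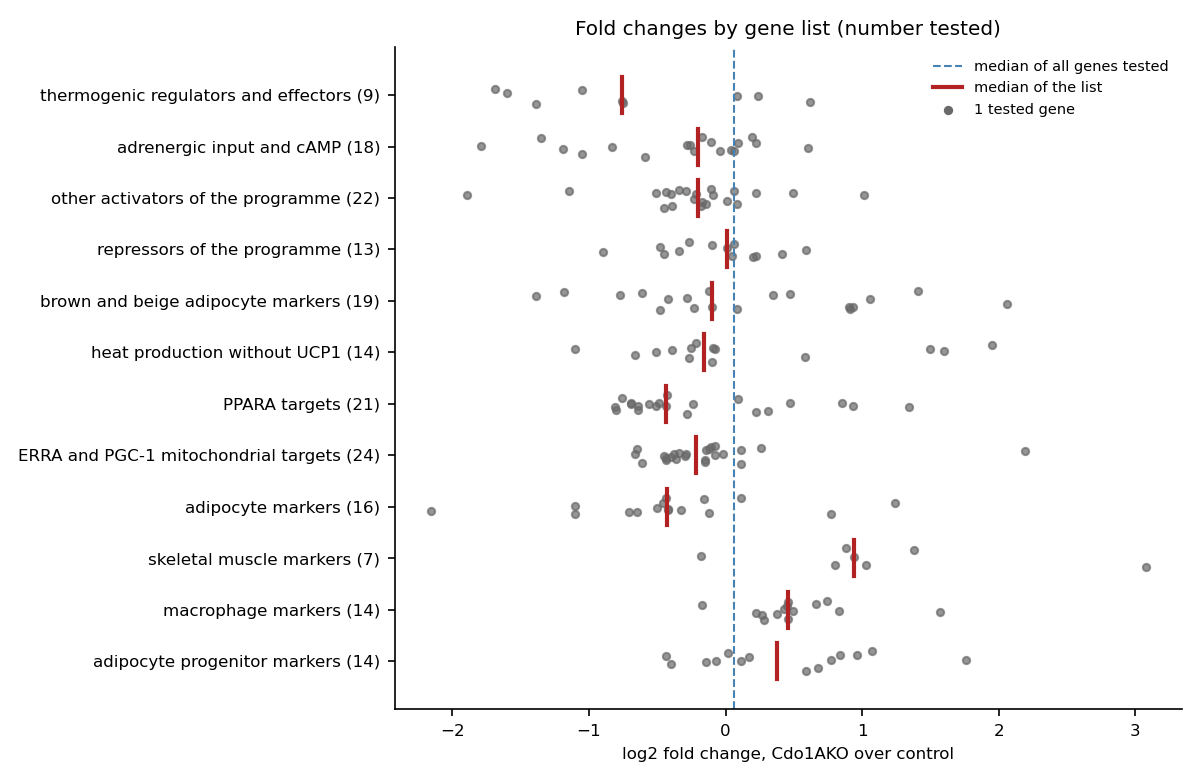
Log2 fold changes (Cdo1AKO over control) of tested genes by list, 1 point per gene. Drawn are the thermogenic regulators and effectors, the pathway lists, and adipocyte, skeletal muscle, macrophage and adipocyte progenitor markers. A red line gives the median of the list and a dashed line the median of all genes tested, 0.06. Vertical scatter within a list has no meaning. Lists not drawn include Schwann cell markers (median -0.97) and T cell and natural killer cell markers (1.74). The thermogenic regulators and effectors have a median of -0.76, and the lists of PPAR alpha targets and adipocyte markers have medians of -0.44 and -0.43.

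Other cell types of the depot were read in the same way. Schwann cell markers had 9 of 11 negative with a median log2 fold change of -0.97, and Cdh19 was at -1.62 ± 0.35 (SE) without overlap. T cell and natural killer cell markers had 15 of 15 positive with a median of 1.74. Their summed CPM was 1240, 25.5 and 1280 in Cdo1AKO 1 to 3, against 17.5, 478 and 274 in control 1 to 3, so it was low in the libraries without lymph node transcripts and, among the others, higher in Cdo1AKO. With the lymph node term 7 of the 15 rose (Cd3d, Cd3e, Cd8b1, Trac, Cd5, Il7r and Foxp3), beside 375 of 16623 among all genes tested. The part of T cells in the level of Ucp2 was not tested. Endothelial markers had 9 of 13 positive with a median of 0.19, which was -0.24 without Cdo1AKO 2. B cell and lymph node stroma markers had 10 of 13 negative with a median of -0.14, which was -0.72 without control 1 and 0.77 without control 2. Of 11 epithelial and mammary markers, 2 were tested, both positive.

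The genes most like 3 of these regulators across the 6 libraries were found by the smallest root mean square difference of centred log2 CPM among 11189 genes. For Ppargc1a they were Hcar2 (0.0924), the niacin receptor of adipocytes, Fign (0.101) and Negr1 (0.131). For Ppara they were H2-Q10 (0.237), Hcar1 (0.239), the lactate receptor, and Hlf (0.274). For Ebf2 they were Arxes2 (0.134), Cidea (0.173) and Pde3b (0.184), a phosphodiesterase that breaks down cyclic AMP in adipocytes. These are descriptions over libraries that share the group difference, the lymph node split and the adipocyte level.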

How the data were processed

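Per the file headers, the table deposited by the authors gives unnormalised counts, FPKM and their comparison of the groups as log2 fold change, p-value and adjusted p-value. The submitters' processing notes name mm10 as build, with DESeq2 1.20.0, HISAT2 2.0.5 and featureCounts 1.5.0-p3 as tools. Whether reads were counted by strand is not stated there. Deposited FPKM was not tested. Groups and replicate numbers came from the titles. Counts were filtered with filterByExpr, scaled with TMM and tested with edgeR 4.0.16 (quasi-likelihood, group only) in R 4.3.3, with Benjamini-Hochberg adjustment over 16623 genes and a threshold of 0.05. CPM uses TMM-scaled library sizes. The lymph node term marks libraries with a median marker CPM above 5. Alternatives were other scalings, filters, DESeq2 1.42.0, limma-voom (limma 3.58.1), robust estimation, a replicate block, the lymph node term and each library left out. On counts simulated over 16623 genes with the observed dispersions, the group-only test recovered 24 of 66 genes with a 4-fold change, 0 of 67 with a 2-fold change and 0 of 67 at 1.5-fold, with 1 false call; with a dispersion of 0.02 these were 66 of 66, 60 of 67 and 27 of 67, with 9 false calls. Promoters are from RefSeq (GRCm38.p6). The genes and lists were chosen with earlier results of these data known. Named genes were the 10, Cdo1, the 3 tested genes with the smallest p in each of the pathway lists, defining cell type markers, and the 3 genes most like Ppargc1a, Ppara and Ebf2 with mean CPM of at least 5. Pde3b and Acadvl are also named where the lymph node fit called them.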

Additional observations from a re-analysis of the deposited data

How the results depend on the processing

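The fold changes of the 8 tested genes other than Dio2 were recomputed under every alternative, 152 values in all. Of these values, 0 turned direction, 134 stayed on their side of the threshold and 18 passed it. All of the 8 but Esrra were without overlap between the groups, so leaving out libraries could hardly turn their direction. With group only, 0 genes passed under edgeR with any scaling, filter, robust estimation or left-out library, or under limma-voom; at an unadjusted p under 0.05 the edgeR test had 1724 genes, and 836 to 4524 with each library left out. DESeq2 called 274 genes (1.55% of those tested), 4 of them among the 10 and 13 in the lists. The lymph node term called 686 (4.13%), 3 and 30. Of these 30, 7 were T cell and natural killer cell markers and 6 were Schwann cell markers. The 4 libraries with lymph node transcripts alone called 2562 (15.4%), 6 and 95. DESeq2 on the filtered genes, chosen after seeing the data, called 392 (2.46%), 5 and 18. Dio2 turned to -1.02 under limma-voom, -0.88 with the replicate block, -0.36 with the lymph node term and -2.05 in the libraries with lymph node transcripts; with each library left out it ran from -2.40 to 0.81. The cause was not tested. The replicate block called 0 genes (909 at an unadjusted p under 0.05), with Ppargc1a at -1.40, Ppara at -1.72 and Ebf2 at -1.63. The correlations of same-numbered samples were -0.66, -0.66 and 0.42. Correlations were positive between libraries on the same side of the lymph node split, such as 0.69 for Cdo1AKO 2 and control 1. Across the split they were negative, so they cannot decide whether the numbers pair the samples. Ucp1 and Dio2 are limited by depth, at 1 to 30 counts per library.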
